A study of Mus musculus with 32 samples.

Results

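The WNT genes described here were 57 protein-coding genes in 6 roles, chosen by symbol: 19 WNT ligands, 12 receptors (10 Frizzled genes with Lrp5 and Lrp6), 9 secreted antagonists (the Dkk and Sfrp genes and Wif1), 7 genes of the R-spondin branch, 5 genes of the beta-catenin and TCF/LEF branch, and 5 genes inside the cell that act on the pathway (Axin1, Axin2, Nkd1, Nkd2 and Sp5). They were 57 of 24028 gene symbols with a value in 2 RNA-seq libraries, 1 from mouse embryonic stem cells (mESCs) of wild-type (WT) genotype and 1 labelled Eed-/-. EED is a core subunit of Polycomb repressive complex PRC2, which places trimethylation on lysine 27 of histone H3 (H3K27me3). The study asked what Polycomb does at DNA methylation valleys (DMVs), long unmethylated regions that often hold developmental genes. Both libraries are labelled as line TT2, whereas Eed-/- samples of the other assays carry the name of another line. Both cultures were kept on gelatin in medium with 15% serum and leukemia inhibitory factor, and no inhibitor of GSK3 is named. There was 1 library per genotype, so genotype, culture and library cannot be told apart and no test between genotypes was made.

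WNT proteins are secreted, lipid-modified ligands that bind a Frizzled receptor together with LRP5 or LRP6. In the canonical branch this stops AXIN, APC and the kinases GSK3 and CK1 from marking beta-catenin for destruction, and beta-catenin then joins TCF/LEF factors on DNA. Target genes include inhibitors of the pathway itself, such as Axin2, Nkd1, Znrf3 and Rnf43. In mESCs, WNT signalling supports self-renewal, and TCF7L1 acts there mainly as a repressor. In the embryo, WNT ligands and their antagonists pattern the primitive streak and many organs, and many of their genes lie in Polycomb-marked chromatin.

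TCF/LEF factors bind the letters CTTTGAT or CTTTGAA, so member promoters were searched for both, on both strands, in 250 bases before and 50 after the start given by RefSeq (GRCm38.p6). Of the 57 genes, 38 had a promoter entry, with 48 promoters in all. The letters were found in 4 of these 48 promoters (8.33%), against 8.65% of all 32851 promoters in the table. CTTTGAT alone was found in 3 (6.25%), against 3.73% of all promoters. The 4 promoters with a match were those of Sp5, Wnt5b, Wnt11 and Dkk1. They are shown with 40 bases on each side of the match, which is in capitals, 5′ to 3′ in the direction of the gene. On Wnt11 the match reads on the other strand.
Sp5, chr2:70474779-70474865, + strand: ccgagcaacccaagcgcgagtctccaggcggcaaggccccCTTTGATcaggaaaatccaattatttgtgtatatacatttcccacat
Wnt5b, chr6:119449411-119449497, - strand: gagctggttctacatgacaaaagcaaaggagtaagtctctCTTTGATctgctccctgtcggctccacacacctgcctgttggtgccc
Wnt11, chr7:98835021-98835107, + strand: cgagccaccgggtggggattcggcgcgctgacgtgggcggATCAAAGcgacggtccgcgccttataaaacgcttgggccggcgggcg
Dkk1, chr19:30549567-30549653, - strand: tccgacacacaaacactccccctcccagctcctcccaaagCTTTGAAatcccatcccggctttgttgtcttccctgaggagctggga
The match lay 97 bases before the start of Sp5, 64 before Wnt5b, 44 before Wnt11 and 110 before Dkk1. None of these 4 genes reached an FPKM of 1 in either library, as given below. FPKM scales fragments to transcript length and to the mapped total of the library, so levels can be set side by side between genes. Values given as FPKM are as deposited unless they are called normalized, and paired values give WT first.

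Member promoters were rich in CpG dinucleotides, the letters that DNA methylation acts on. They held a median of 24.5 CpGs per 300 bases, against 7.0 in all promoters of the table. Promoters of protein-coding genes alone were not taken for comparison. Of the 4 members past the 2-fold threshold described below, Fzd7 and Sfrp5 had a promoter entry, and the 250 bases before their starts are shown with each CpG in capitals.
Fzd7, chr1:59481897-59482146, + strand: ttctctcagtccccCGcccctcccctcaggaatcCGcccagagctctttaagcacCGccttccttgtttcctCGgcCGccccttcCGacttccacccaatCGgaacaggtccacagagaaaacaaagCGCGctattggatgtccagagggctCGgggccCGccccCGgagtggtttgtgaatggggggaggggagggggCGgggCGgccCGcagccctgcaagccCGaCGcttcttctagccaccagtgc
Sfrp5, chr19:42202253-42202502, - strand: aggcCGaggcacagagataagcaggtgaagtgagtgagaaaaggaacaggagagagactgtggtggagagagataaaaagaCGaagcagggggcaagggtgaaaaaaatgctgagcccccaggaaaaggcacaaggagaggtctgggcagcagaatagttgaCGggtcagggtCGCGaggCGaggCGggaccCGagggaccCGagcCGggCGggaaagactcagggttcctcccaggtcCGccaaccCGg
The Fzd7 stretch held 17 CpGs, spread along its length. The Sfrp5 stretch held 13, most of them within the last part before the start. Fzd7 is among the genes that the study places in mESC DMVs and Sfrp5 is not.

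The depth of each library was not given with the files and was recovered from the steps of low values. It came to about 7240000 fragments in WT against 6450000 in the library labelled Eed-/-. At these depths a transcript of 2 kb with an FPKM of 1 was worth 13.2 and 11.7 fragments. The cells carried mESC markers: the summed FPKM of 10 pluripotency genes was 1202 in WT against 1292 in the library labelled Eed-/-. These genes did not share a direction. Zfp42 (131.1 and 272.2), Nanog (114.0 and 175.5), Klf4 (25.5 and 44.4), Klf2 and Tfcp2l1 had the higher FPKM in the latter. Utf1 (166.8 and 106.4), Dppa4 (47.0 and 26.9), Pou5f1 (392.5 and 373.1), Sox2 and Esrrb had the lower. This holds for the deposited values. On the normalized values Pou5f1 (367.5 and 404.2) and Esrrb (48.5 and 53.3) had the higher value in the library labelled Eed-/-. The Eed transcript itself was not lower, at an FPKM of 63.0 in WT against 70.9 in the library labelled Eed-/-, so its level does not check the label. The paper reports that it checked the loss of Eed through H3K27me3, on western blots and by ChIP-seq. The Eed-/- samples of other assays carry another line name, as given above. The median difference of all genes was -0.29 on chromosome 1, -0.38 on chromosome 8 and 0.46 on chromosome X, on the log2(normalized FPKM + 1) scale used throughout. No member lies on chromosome X. Fzd5, Fzd7, Wnt6 and Wnt10a lie on chromosome 1 and Sfrp1, Nkd1 and Dkk4 on chromosome 8.

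Most WNT genes were silent or low in both libraries, while a small set of receptors, signal transducers and antagonists was well expressed. A normalized FPKM of at least 2 was reached by 16 of 57 members in WT (28.1%) and by 18 in the library labelled Eed-/- (31.6%), with 14 in both, against 38.7% of all symbols in either library. Normalization by quantiles gives both libraries the same spread of values, so the share of all symbols is equal by design. The median member had a deposited FPKM of 0.546 in WT against 0.442 in the library labelled Eed-/-. Ctnnb1, which encodes beta-catenin, was the most abundant, followed in WT by Fzd5, Fzd7, Lgr4, Sfrp1, Axin1 and Lrp6. The genes listed at 0 in both libraries were Wnt1, Wnt2, Dkk2, Dkk4 and Lgr5. For these 5 genes, the limit that a count of 0 allows (3 fragments) was an FPKM between 0.0914 (Lgr5) and 0.369 (Dkk4) in WT and between 0.103 and 0.414 in the library labelled Eed-/-. Wnt8b, Wnt9b and Wnt10b were listed at 0 in WT only, and Wnt8a, Wnt10a and Rspo3 in the library labelled Eed-/- only. All 6 had an FPKM of 0.309 or less in the other library, which is about 1 to 4 fragments.

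**Figure D1:**
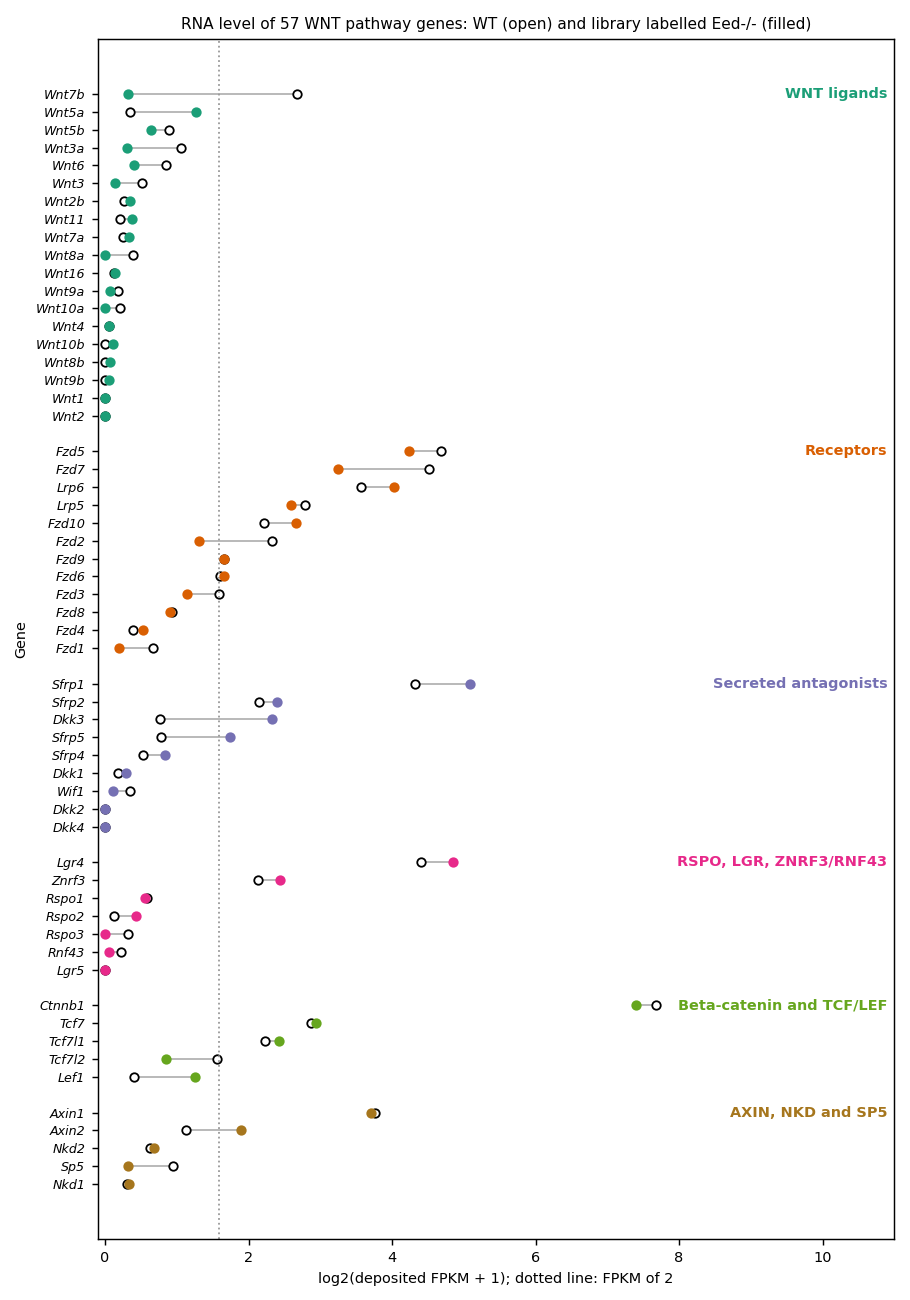
RNA level of each of the 57 genes, by role, as log2(deposited FPKM + 1) on the horizontal axis; open circles are the WT library, filled circles the library labelled Eed-/-, and the dotted line is an FPKM of 2. Ligands lie at the left except Wnt7b in WT, whereas Ctnnb1 lies far to the right at an FPKM of 203.5 in WT against 167.0 in the library labelled Eed-/-.

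Across the 57 genes, 45 had a mean normalized FPKM of at least 0.1 and were used for differences. The 12 left out were all ligands, antagonists or Lgr5. Past 2-fold, Dkk3 and Sfrp5 had the higher value in the library labelled Eed-/-, and Wnt7b and Fzd7 the lower. That is 4.44% of the members used in each direction, against 3.8% of the 14835 genes used that were higher and 3.98% that were lower. Both shares were near the background. With 1 added to each value, a gene can pass the threshold only if its FPKM reaches 1 in the higher library. Of the members, 25 did, and the same 4 passed, 2 of the 25 higher and 2 lower. In all genes of this kind 4.96% were higher and 5.19% lower. The median difference of the 45 members was 0.08, with 26 above 0 and 19 below, and that of all genes used was 0.01. The added constant weighs on these counts. With 0.1 added in place of 1, 6 of the 45 were higher (13.3%, against 11.4% of all genes used) and 13 lower (28.9%, against 12.0%). Those 13 were Wnt7b, Fzd7, Fzd2, Fzd1, Tcf7l2, Wnt3a, Sp5, Wnt3, Wnt6, Wif1, Rnf43, Rspo3 and Wnt8a, and the last 6 rested on about 11 fragments or fewer in WT.

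The precision of each difference was read from the fragments behind it. For each gene with a value in both libraries, the ratio of normalized FPKM (library labelled Eed-/- over WT) was given a 95% exact interval, which covers counting error only and not the spread between cultures. Of the 43 used members with such an interval, 10 lay wholly above a ratio of 1, 10 wholly below, and 23 held 1. Among all 12914 genes with an interval, 24.8% lay above 1 and 23.1% below, so the members were again near the background.

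**Figure D2:**
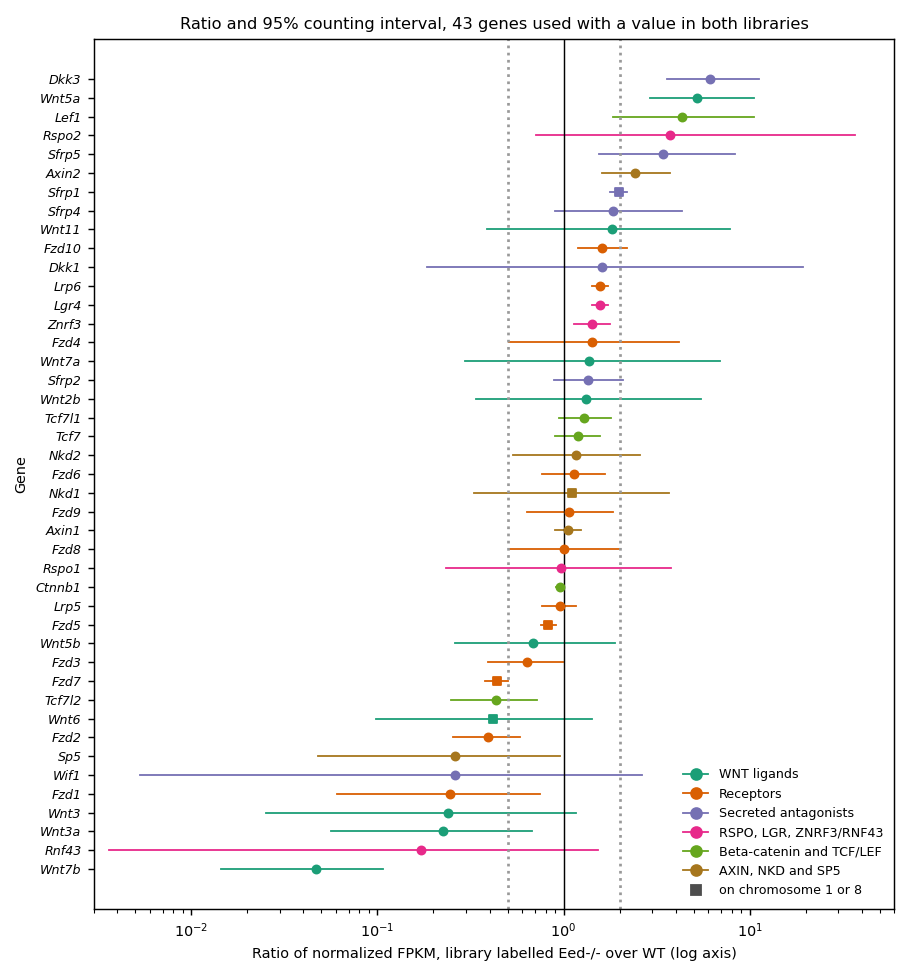
Ratio of normalized FPKM, library labelled Eed-/- over WT, on a log axis for the 43 members that were used and had a value in both libraries; points are ratios, lines their 95% counting intervals, colours the roles and squares genes on chromosomes 1 or 8. Dkk3 stands highest at a ratio of 6.15 and Wnt7b lowest at 0.0467, and intervals widen for genes with few fragments.

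Among the ligands, Wnt7b alone had an FPKM above 2 in WT, and it was nearly absent from the library labelled Eed-/-. Its FPKM was 5.41 in WT against 0.243 in the library labelled Eed-/-, from about 130 and 5 fragments. The difference was -2.31, or a level 21.4-fold lower on the normalized scale (95% counting interval 9.29 to 69.6). Wnt7b encodes a ligand best known from lung, placenta and nervous system. In mm9 it lies at chr15:85365869-85412251 on the - strand and overlaps the noncoding gene AU022754 on the other strand, which is listed at 0 in both libraries.

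Wnt5a stood on the other side of the ligands. It encodes the main ligand of the noncanonical branch, which steers cell movement and polarity. Its FPKM was 0.273 in WT against 1.40 in the library labelled Eed-/-, from about 13 and 61 fragments. The normalized level was 5.20-fold higher in the latter (95% counting interval 2.91 to 10.6), yet with a difference of 0.93 it stayed under the 2-fold threshold, because 1 is added to each value before the logarithm. Wnt5b, its closest relative, went from 0.856 to 0.560 FPKM, and its interval held 1. It overlaps Fbxl14 on the other strand, at 13.0 and 11.4 FPKM, and strand use in counting is not given.

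The makeup of the ligand pool therefore differed between the libraries. The summed FPKM of the 19 ligands was 10.1 in WT against 4.06 in the library labelled Eed-/-. Wnt7b made up 53.5% of this sum in WT against 5.98% in the library labelled Eed-/-. Wnt5a made up 2.70% and 34.4%. The other 17 ligands had an FPKM of 1.08 or less in both libraries.

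Several WNT ligand genes lie next to each other in the genome, as remnants of ancient WNT gene clusters. In mm9 these were Wnt6 and Wnt10a on chromosome 1, 6196 bases apart; Wnt3a and Wnt9a on chromosome 11, 16175 bases apart; Wnt9b and Wnt3 on chromosome 11, 24328 bases apart; and Wnt10b and Wnt1 on chromosome 15, 11706 bases apart. Wnt3a, a classical activator of beta-catenin needed in the primitive streak, had an FPKM of 1.08 in WT against 0.241 in the library labelled Eed-/-, from about 20 and 4 fragments. Its normalized level was 4.44-fold lower (95% counting interval 1.49 to 17.8), and its difference of -0.73 did not reach 2-fold on the scale used. Its neighbour Wnt9a had 0.132 and 0.0494 FPKM, or about 3 fragments and 1. Wnt3, which starts gastrulation in the embryo, had 0.424 and 0.106 FPKM, from about 9 and 2 fragments, with an interval that held 1. Its neighbour Wnt9b was listed at 0 in WT and at 0.0357 FPKM in the library labelled Eed-/-. Wnt6 had 0.805 and 0.328 FPKM, from about 11 and 4 fragments, also with an interval that held 1, and Wnt10a had 0.155 FPKM in WT against 0 in the library labelled Eed-/-. The pair of Wnt10b and Wnt1 was silent or nearly so, with Wnt10b at 0 in WT and 0.0757 FPKM in the library labelled Eed-/-. Wnt3a, Wnt3 and Wnt6 thus had lower values in the library labelled Eed-/-, as Wnt7b did, but only the intervals of Wnt7b and Wnt3a lay below 1.

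The remaining ligands were at the edge of detection. Wnt2b, Wnt4, Wnt7a, Wnt11 and Wnt16 had FPKM values from 0.0380 (Wnt4 in WT) to 0.298 (Wnt11 in the library labelled Eed-/-), that is 1 to 6 fragments, and every one of their intervals held 1. At this depth a difference in these 5 ligands was not detectable unless it was large.

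The receptors included the most abundant surface genes of the set. All 10 Frizzled genes were detected, and their summed FPKM was 62.1 in WT against 40.3 in the library labelled Eed-/-. Fzd5 and Fzd7 together made up 74.8% of the sum in WT against 65.7% in the library labelled Eed-/-. Fzd7, a receptor known for its high level in pluripotent cells, had an FPKM of 21.8 in WT against 8.51 in the library labelled Eed-/-, from about 730 and 253 fragments. The difference was -1.11, and the normalized level 2.28-fold lower (95% counting interval 1.98 to 2.65). Fzd7 (mm9 chr1:59538991-59543791, + strand) lies on chromosome 1, where the median gene differed by -0.29, and its difference from that median was -0.81. With the median of each chromosome subtracted Fzd7 thus no longer passed 2-fold. The part of the chromosome in this difference was not tested.

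Fzd5 lies on chromosome 1 as well. Its FPKM was 24.6 in WT against 17.9 in the library labelled Eed-/-, a difference of -0.26, and 0.03 from the median of the chromosome. Fzd2, on chromosome 11, had a lower value as well. Its FPKM was 4.01 in WT against 1.48 in the library labelled Eed-/-, from about 100 and 33 fragments. Its difference of -0.96 lay just under the threshold, and its normalized level was 2.56-fold lower (95% counting interval 1.71 to 3.91). Fzd3, a receptor with a role in axon guidance, went from 2.01 to 1.21 FPKM, with an interval of the ratio from 0.395 to 0.994.

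Fzd10 differed the other way from Fzd2 and Fzd7. Its FPKM was 3.65 in WT against 5.35 in the library labelled Eed-/-, a difference of 0.57 and a ratio of 1.62 (95% counting interval 1.20 to 2.19). Fzd6 had 2.02 and 2.15 FPKM and Fzd9 2.15 and 2.17 FPKM, and both intervals held 1. Fzd1, Fzd4 and Fzd8 stayed under an FPKM of 1. Of these, Fzd1 had 0.594 and 0.148 FPKM, from about 18 and 4 fragments, and an interval below 1. In all, 5 Frizzled genes had an interval below 1 (Fzd1, Fzd2, Fzd3, Fzd5 and Fzd7), 1 above (Fzd10) and 4 held 1, beside 23.1% below and 24.8% above among all genes with an interval.

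The co-receptors were both expressed. Lrp6 had an FPKM of 10.8 in WT against 15.3 in the library labelled Eed-/-, from about 719 and 909 fragments, with a ratio of 1.58 (95% counting interval 1.43 to 1.74). Lrp5 had 5.91 and 5.03 FPKM, and its interval held 1. Neither passed the 2-fold threshold.

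Of the secreted antagonists, 2 of 7 used passed the 2-fold threshold (Dkk3 and Sfrp5), both upward, where 3.8% of all genes used were higher and 3.98% lower. The median difference of the 7 was 0.35, and 6 had a higher value in the library labelled Eed-/-. Their summed FPKM was 24.6 in WT against 44.8 in the library labelled Eed-/-, most of it from Sfrp1. SFRP proteins carry a Frizzled-like domain and can bind WNT ligands outside the cell. Sfrp1 had an FPKM of 19.0 in WT against 33.1 in the library labelled Eed-/-, from about 575 and 895 fragments. Its difference was 0.95 and its normalized level 1.98-fold higher (95% counting interval 1.78 to 2.201). Sfrp1 lies on chromosome 8, where the median gene differed by -0.38, and its difference from that median was 1.33, past 2-fold.

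Sfrp5, at mm9 chr19:42272461-42276742 on the - strand, passed the threshold narrowly. Its FPKM was 0.723 in WT against 2.34 in the library labelled Eed-/-, from about 9 and 26 fragments. The difference was 1.00 and the ratio 3.43 (95% counting interval 1.56 to 8.33). On the deposited values, without normalization, its difference was 0.96 and it did not pass. Sfrp2 went from 3.41 to 4.25 FPKM and Sfrp4 from 0.437 to 0.785 FPKM, and both intervals held 1. Sfrp1 made up 80.6% of the summed Sfrp FPKM in WT against 81.8% in the library labelled Eed-/-.

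Dkk3 was the member with the largest difference upward. Its FPKM was 0.697 in WT against 4.00 in the library labelled Eed-/-, from about 16 and 82 fragments. The difference was 1.63 and the ratio 6.15 (95% counting interval 3.58 to 11.3). Dkk3 (mm9 chr7:119259533-119302571, - strand) is a divergent member of the Dickkopf family and, unlike DKK1, is not a classical ligand of LRP6. Dkk1, the classical inhibitor that binds LRP6, had 0.134 and 0.226 FPKM, or about 2 and 3 fragments, and Dkk2 and Dkk4 were listed at 0. Wif1, which binds WNT ligands directly, had about 4 fragments and 1. The higher sum of the antagonists thus came from Sfrp1 and Dkk3, with smaller parts from Sfrp5 and Sfrp2, and not from Dkk1 or Wif1.

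R-spondins raise WNT signalling by binding LGR receptors and removing the ubiquitin ligases ZNRF3 and RNF43, which would otherwise clear Frizzled from the surface. Lgr4 was the expressed receptor of this branch, with an FPKM of 20.1 in WT against 27.7 in the library labelled Eed-/-, from about 711 and 873 fragments. Its difference was 0.62 and its ratio 1.57 (95% counting interval 1.42 to 1.73). Znrf3 had 3.39 and 4.44 FPKM, a ratio of 1.43 (95% counting interval 1.14 to 1.78). The other ligase Rnf43, the R-spondins Rspo1, Rspo2 and Rspo3 and the intestinal stem cell marker Lgr5 all stayed at an FPKM of 0.501 or less. None of the 7 genes passed the 2-fold threshold.

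Inside the cell, the transducers were largely level. Ctnnb1 had an FPKM of 203.5 in WT against 167.0 in the library labelled Eed-/-, a difference of -0.06 after normalization. Its ratio was 0.956 (95% counting interval 0.916 to 0.998), from about 5073 and 3709 fragments. Axin1, the scaffold of the destruction complex, had 12.6 and 12.0 FPKM, and its interval held 1. Tcf7 (6.29 and 6.67 FPKM) and Tcf7l1 (3.69 and 4.37 FPKM) also had intervals that held 1.

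The other TCF/LEF genes differed in opposite directions. Lef1, which encodes an activating partner of beta-catenin, had 0.325 FPKM in WT against 1.38 in the library labelled Eed-/-, from about 8 and 29 fragments. Its difference was 0.86 and its ratio 4.34 (95% counting interval 1.85 to 10.5). Tcf7l2 had 1.96 and 0.800 FPKM, from about 58 and 21 fragments, with a difference of -0.67 and a ratio of 0.433 (95% counting interval 0.248 to 0.720). Neither passed the 2-fold threshold on the scale with 1 added.

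The feedback genes did not share a direction. Axin2, the most widely used reporter gene of canonical WNT signalling, had an FPKM of 1.19 in WT against 2.74 in the library labelled Eed-/-, from about 35 and 72 fragments. Its difference was 0.82 and its ratio 2.43 (95% counting interval 1.60 to 3.75). Sp5, a zinc finger gene that is another direct target in mESCs and carries CTTTGAT in the promoter shown above, had 0.937 FPKM in WT against 0.242 in the library labelled Eed-/-. These came from about 13 and 3 fragments, with a ratio of 0.262 (95% counting interval 0.0479 to 0.954). Nkd1 and Nkd2 had FPKM values between 0.234 and 0.611, and their intervals held 1. Of these 5 genes none passed the 2-fold threshold, and Axin2 was the only one to move from under to above an FPKM of 2.

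**Figure D3:**
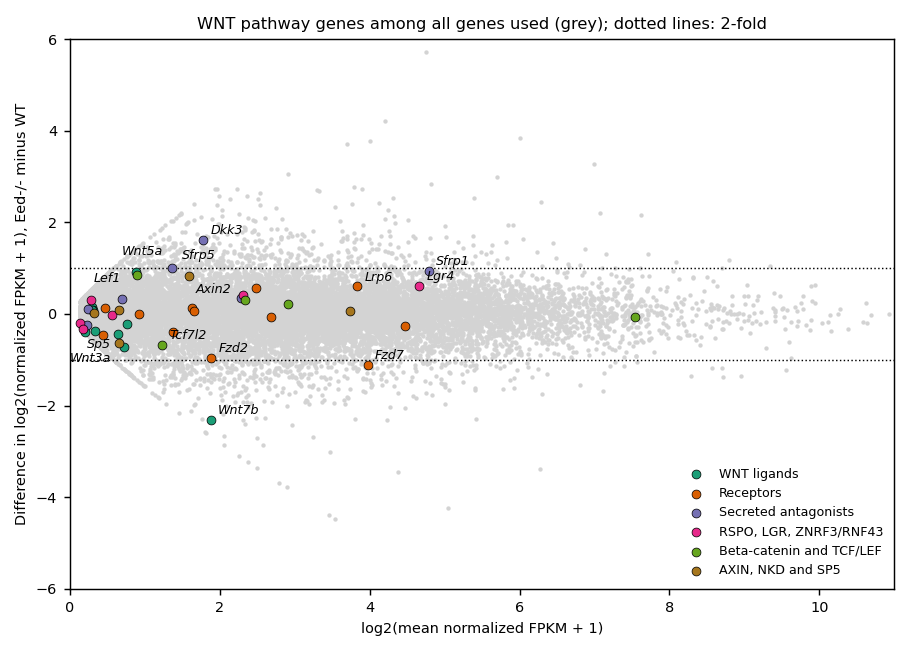
Difference in log2(normalized FPKM + 1), library labelled Eed-/- minus WT, against log2(mean normalized FPKM + 1); grey points are the 14835 genes used, of which 69 lie outside the axes, coloured points are members by role, and dotted lines mark 2-fold. Dkk3 and Sfrp5 lie above the upper line and Wnt7b and Fzd7 below the lower, while Sfrp1 at 0.95 and Fzd2 at -0.96 lie just inside.

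On the normalized values, 6 members crossed an FPKM of 2 between the libraries, and they did so in both directions. Wnt7b and Fzd2 were above it in WT only. Dkk3, Sfrp5, Axin2 and Fzd6 were above it in the library labelled Eed-/- only, where Fzd6 passed from 1.96 to 2.22 with an interval of the ratio that held 1.

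The study's own list of genes in mESC DMVs held 11 of the 57 members: Ctnnb1, Fzd2, Fzd5, Fzd7, Fzd8, Fzd10, Lef1, Sp5, Tcf7l2, Wnt5a and Wnt11. The share of all symbols on that list is not given here, so this count has no background beside it. The values below are set beside all genes and not beside all DMV genes. All 11 were used, and 1 (Fzd7) passed the 2-fold threshold, downward, as 3.98% of all genes used did. Their median difference was -0.06, with a range from -1.11 (Fzd7) to 0.93 (Wnt5a). Of the other 46 members 34 were used, with 2 higher (3.8% in all genes used), 1 lower and a median of 0.08. By counting interval, 3 of the 11 lay above a ratio of 1 (Fzd10, Lef1 and Wnt5a), 6 below (Ctnnb1, Fzd2, Fzd5, Fzd7, Sp5 and Tcf7l2) and 2 held 1 (Fzd8 and Wnt11). Among the other 32 with an interval, 7 lay above, 4 below and 21 held 1, and of all genes with an interval 24.8% lay above and 23.1% below. Members in DMVs had higher levels, with a median deposited FPKM of 1.96 in WT against 0.431 for the others, and intervals narrow with fragments. The part of level in these interval counts was not tested.

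Beyond the members, 70 further genes of the pathway were read from a list, of which 64 were used. Past 2-fold, 5 had the higher value in the library labelled Eed-/- (Notum, Porcn, Gpc3, Gpc4 and Apcdd1), and none was lower, against 3.8% higher and 3.98% lower in all genes used. Their median difference was 0.03. Notum, a secreted enzyme that removes the lipid from WNT ligands and is itself a feedback target in several tissues, had an FPKM of 6.46 in WT against 26.7 in the library labelled Eed-/-. Its difference was 2.07 and its ratio 4.71 (95% counting interval 3.75 to 5.98). Apcdd1, a membrane inhibitor of the pathway, had 1.22 and 3.31 FPKM, a difference of 1.01.

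Porcn, Gpc3 and Gpc4 all lie on chromosome X, where the median gene differed by 0.46. Porcn, which attaches the lipid to WNT ligands, had 7.06 and 14.4 FPKM, a difference of 1.07 and of 0.61 from the median of the chromosome. The glypicans Gpc3 and Gpc4, surface proteoglycans that bind WNT ligands, had differences of 1.34 and 1.28, and of 0.88 and 0.82 from that median. The part of the chromosome in these 3 differences was not tested.

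Of the core machinery, no gene of the destruction complex list (18 used), the dishevelled list (9 used) or the nuclear cofactor list (13 used) passed the 2-fold threshold. Csnk1a1 and Tnks2, a kinase and a tankyrase that act on the complex, were the most abundant of the first list, at 127.1 and 57.9 FPKM in WT and 75.2 and 45.8 in the library labelled Eed-/-. Dvl2, which relays the signal from Frizzled, had 30.2 and 13.6 FPKM, a difference of -0.93, and Ccdc88c had 13.4 and 7.86 FPKM. Among the cofactors, the co-repressors Ctbp2 and Ctbp1 had differences of -0.52 and -0.49. Among other co-receptors, Ptk7 had 30.5 and 22.3 FPKM and Ryk 22.4 and 19.8 FPKM. Prickle2, of the co-receptor list, had 0.327 and 1.59 FPKM, a difference of 0.99, just under the threshold. Of the remaining antagonists, Tpbg had 3.03 and 5.76 FPKM and Kremen1 4.60 and 3.64 FPKM. Lgr6 had 0.0804 and 0.315 FPKM, and Rspo4 was listed at 0 in both.

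**Figure D4:**
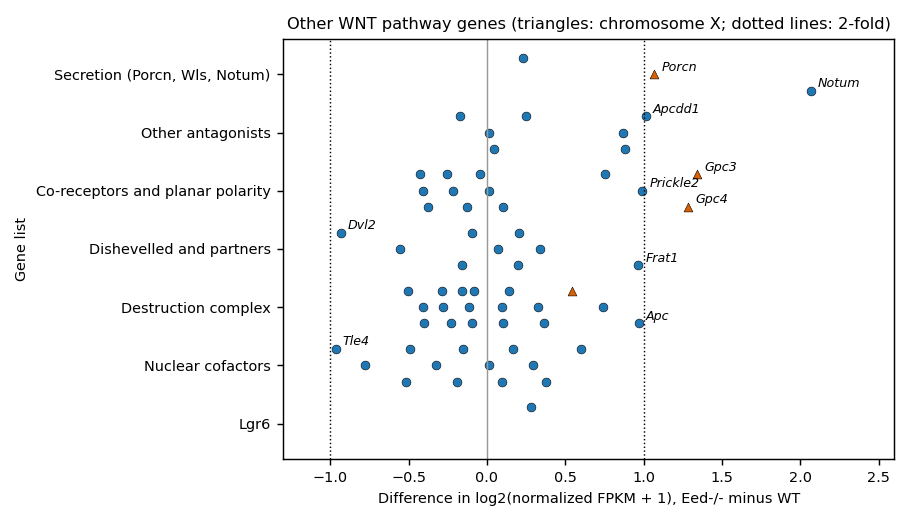
Difference in log2(normalized FPKM + 1), library labelled Eed-/- minus WT, for 64 other pathway genes by list; triangles are genes on chromosome X and dotted lines mark 2-fold. Notum lies farthest to the right at 2.07, and no gene lies left of the lower line.

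A list of 11 genes known as WNT targets or primitive streak genes held 2 past 2-fold, both with the higher value in the library labelled Eed-/-, where 3.8% of all genes used were higher and 3.98% lower. The median difference of the list was -0.0043. The first was Eomes, a T-box factor of streak and trophoblast, at 0.478 and 1.93 FPKM and a difference of 1.03. It rested on about 12 and 42 fragments, with a ratio of 4.27 (counting interval 2.15 to 8.67). The second was Gsc, a homeobox gene of the organizer, at 0.415 and 1.87 FPKM and a difference of 1.06. It rested on about 3 and 13 fragments, with a ratio of 4.71 (counting interval 1.40 to 27.85). Lower values were found for Cdx2 (0.56 and 0.0788 FPKM), Mesp1 (0.766 and 0.172) and Mixl1 (0.590 and 0.367). T (0.296 and 0.581 FPKM), Cdx1 and Tbx6 had higher values. Their intervals and those of Cdx2, Mesp1 and Mixl1 held 1, while those of Myc and Ccnd1 lay below 1. The most abundant were Tdgf1, with 124.6 and 102.3 FPKM, and Ccnd1, with 49.4 and 34.2 FPKM. Neither of these passed 2-fold.

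Markers of other cell types differed between the libraries too. The summed FPKM of 10 primitive endoderm markers was 15.6 in WT against 57.2 in the library labelled Eed-/-, led by Lama1 (8.25 and 33.5) and Col4a1 (5.62 and 19.1), with Gata4 at 0.431 and 1.35, Gata6 at 0.184 and 0.514, Sox17 at 0 and 0.449 and Foxa2 at 0.0731 and 0. That of 10 feeder fibroblast markers was 27.5 and 127.3, almost all of it from Vim (24.9 and 118.4) and Thy1 (0.976 and 6.97), while Col1a1 had 0.460 and 0.137, Col1a2 0.167 and 0.0312, Col3a1 0.0772 and 0, and Dcn was listed at 0 in both. The sum of 10 trophoblast markers was 51.4 and 17.4, most of it from Tfap2c (39.8 and 9.21). Krt8 (6.88 and 3.53), Ascl2 (2.41 and 1.30), Krt7 (0.981 and 0.110) and Cdx2 (0.563 and 0.0788) were lower as well. Eomes (0.478 and 1.93), Gata3 (0.365 and 0.664) and Hand1 (0 and 0.541) were higher, and Elf5 and Tpbpa were at 0 in both. The sum of 6 neural markers was 112.6 and 98.0, most of it from Tubb3 (95.43 and 73.95). Nes (6.97 and 10.82) and Olig2 (7.23 and 11.19) went the other way. Sox1 had 1.94 and 0.924, Pax6 had 1.08 and 1.10, and Neurog2 was listed at 0 in both. The part of such cells in the differences of Dkk3, the Sfrp genes, Wnt7b, Wnt5a and Notum was not tested. In a bulk library, fewer cells of a type and less RNA per cell cannot be told apart.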

How the data were processed

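Strand-specific libraries were made from total RNA without its ribosomal part. Per the paper's methods, the authors used TopHat for mapping to mm9 and Cufflinks for quantification; the submitters' processing notes name TopHat2 2.0.11, Bowtie2 2.2.2, Cufflinks 2.2.1 and BSMAP, while the methods name another TopHat version. The authors deposited FPKM values by gene symbol, 24525 lines for each library. The annotation, the options, any use of strand in counting and whether the files were already scaled between libraries are not given in the sources used here. For its own display of these 2 libraries the study applied quantile normalization and a log scale, and the same was done here. The series holds 32 samples, and only the 2 RNA-seq libraries were analysed here.

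Symbols listed more than once (268) were summed, which left 24028, and the 2 columns were then normalized by quantiles. Differences were taken as log2(FPKM + 1), library labelled Eed-/- minus WT, in genes whose normalized FPKM averaged at least 0.1, and called at 2-fold. This scale understates the change of low genes. With 1 library per genotype there was no test. Fragment numbers were recovered from the whole-number steps of low values among genes with 1 transcript (GENCODE vM1, mm9), taking 180 bases off each length: 80.3% of 772 low values in WT and 80.5% of 877 in the library labelled Eed-/- fell within 0.1 of a whole number, against 20% if placed at random. For genes with several transcripts, the longest coding transcript was used and the fragment number is approximate. Intervals of ratios are exact (Clopper-Pearson) at 95%, carried to the normalized scale. PCR copies are not independent molecules, so intervals and limits cover counting error only. Fitting with minimap2 2.31 found no near-identical copy of a member transcript elsewhere in mm9, at 80% of the transcript's length or more. Of the 57 members, 12 overlap an annotated gene on the other strand. Scripts used Python 3.11.15, numpy 2.4.6, pandas 2.3.3 and scipy 1.17.1 and were checked on simulated data.

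Values are given for members at least 2-fold different, whose normalized FPKM averaged at least 2, crossing an FPKM of 2, or lying next to another WNT ligand; of the other lists, for genes at least 2-fold different and the 2 most abundant. Members and other genes given with values outside this rule were chosen after their values were seen. The members and lists were chosen with earlier results of these data known. Membership of DMVs was taken by symbol from the study's list of coding genes in mESCs. RefSeq promoters (GRCm38.p6) were read by symbol only, and coordinates of the 2 builds were not mixed. Promoters of Fzd2, Lgr5, Wnt10a, Wnt8a, Lrp5, Wnt7b, Dkk4, Rspo3, Fzd3, Sfrp1, Fzd6, Rspo2, Fzd8, Znrf3, Sfrp4, Dkk3, Lrp6, Axin1 and Wnt5a had no entry. Alternatives were the values as deposited, median-ratio scaling, other added constants, other filters, repeated symbols left out, a 3-fold threshold, members on chromosomes 1, 8 and X left out and, added after seeing the data, the median of each chromosome subtracted.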

Additional observations from a re-analysis of the deposited data

How the results depend on the processing

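Of the 20 members below, 18 kept their sign under every alternative run on them; Axin1, not called, went from 0.08 to -0.07 on the values as deposited, and Fzd5, not called, from -0.26 to 0.03 with the median of its chromosome subtracted. Of 120 values of the 20 members called or averaging an FPKM of at least 2, 112 kept their side of the threshold, 6 passed it newly and 2 no longer did. On the values as deposited, 1 member was higher (Dkk3) and 3 were lower (Wnt7b, Fzd7 and Fzd2), against 3.07% and 5.40% of all genes. The median of all genes was then -0.09, and Sfrp5 had 0.96 and Fzd2 -1.01. With 0.1 or with 0.01 added in place of 1, 6 members were higher (Axin2, Dkk3, Lef1, Rspo2, Sfrp5 and Wnt5a) and 13 lower, against backgrounds of 11.4% and 12.0% with 0.1 and of 12.9% and 13.4% with 0.01. At a 3-fold threshold 1 was higher (Dkk3) and 1 lower (Wnt7b), against 1.02% and 0.92% of all genes. With members on chromosomes 1, 8 and X left out, 2 were higher (Dkk3 and Sfrp5) and 1 was lower (Wnt7b). Of all genes outside these chromosomes, 3.63% were higher and 3.47% lower. With the median of each chromosome subtracted, an alternative chosen after seeing the data, 3 were higher, Sfrp1 at 1.33 among them, and 1 lower, with Fzd7 at -0.81. The share of all genes at this setting was not taken, so these counts have no background beside them. Among the 22 members that averaged at least 1 FPKM, the same 4 passed. That is 9.09% in each direction, against 4.76% higher and 5.05% lower in all genes at this setting. The median difference of these 22 was 0.17, against 0.01 in all genes. The cause of these shifts was not tested beyond what each setting itself changes. Median-ratio scaling, no filter and repeated symbols left out gave the same 4 calls. No paired analysis was possible because there is 1 library per genotype, and for the same reason no library could be left out. Depth limits the ligands most: 1 fragment decides whether several of them are listed at 0.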
